A study of Mus musculus with 6 samples.

Results

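Expression of 9 epithelial lineage regulators was examined in mouse conjunctival epithelium, from the fornix of embryos made to lose Fgfr2 there. The genes were taken as a list, chosen with earlier results of these data known, and all are reported: Trp63, Grhl1, Grhl2, Grhl3, Ovol1, Gata3, Esrp1, Esrp2 and Klf5. They are 9 of the 19057 genes with a symbol on the array, are read by 15 probes (6 genes by a pair of probes, 3 by a single probe), and all 9 passed the filter on dim probes. None of the 9 passed the test for a difference between genotypes. Gata3 was not detected on any KO array and was detected on every WT array, Grhl1 was lower on each KO array than on any WT array, and Grhl3 and Klf5 were higher. Such patterns were common: 7.34% of all tested items were undetected on every KO array. Groups did not overlap for 17.2% of items with KO lower and 11.3% with KO higher. The raw intensities of Grhl3 and Klf5 overlapped. Esrp1, Trp63 and Grhl2 kept bright signals in both genotypes.

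The KO group held 3 embryos with the genotype Fgfr2 fx/fx and a Le-Cre transgene, and the WT group held 3 wild type embryos. All were taken at E14.5 on a mixed background of FVB and 129, with 1 Illumina BeadChip array per embryo. Le-Cre drives recombination in the ocular surface ectoderm from regulatory sequence of Pax6, and it was carried by the KO embryos alone, so effects of Cre and of losing Fgfr2 cannot be told apart. The epithelium was cut by laser from 10 µm frozen sections, and 15 ng of RNA per embryo was amplified. The tissue labels name conjunctival epithelium, whereas the extraction protocol speaks of prospective lens.

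These regulators set and keep the identity of surface epithelium. The protein p63, from Trp63, is a p53 family factor needed for stratified epithelia. The Grainyhead-like factors (Grhl1, Grhl2, Grhl3) activate adhesion and barrier genes, and Ovol1 is a zinc finger repressor that keeps mesenchymal programmes down. Esrp1 and Esrp2 are RNA-binding proteins that direct epithelial splicing, and Fgfr2, whose epithelial isoform binds the FGFs made by mesenchyme, is among their best known targets. Gata3 and Klf5 are zinc finger factors of epithelial differentiation and of the proliferating basal layer.

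Fewer probes were detected on the KO arrays (34.2% to 34.9%) than on the WT arrays (48.5% to 50.6%), detection being a p below 0.05 against negative controls. Of the 15 probes of these genes, 10, 10 and 11 were detected on KO arrays A, B and C, against 13, 13 and 14 on WT arrays A, B and C. The median raw intensity of all probes was 103, 106 and 101 on KO arrays A, B and C, against 121, 117 and 126 on WT arrays A, B and C. Raw intensities given below are not adjusted for that difference. Other values below are log2 intensities after background correction and quantile normalization. On that scale the lowest detected signal was 5.36 to 5.41 on KO arrays and 4.62 to 4.67 on WT arrays, so dim signals have less room to be read in KO samples. Over all tested items, pairs of KO arrays correlated at 0.70 to 0.71, pairs of WT arrays at 0.94 to 0.96, and a KO with a WT array at 0.75 to 0.77. KO arrays were thus less like each other than like WT arrays. The targeted gene, Fgfr2, has 4 probes. Its brightest read 12.11, 12.34 and 12.30 in KO embryos A, B and C, against 12.16, 11.97 and 12.15 in WT embryos A, B and C. Its dimmest read 4.64, 4.46 and 4.89 in KO, undetected throughout, against 5.07, 6.14 and 5.48 in WT, detected throughout. The 2 others, detected on all 6 arrays, had values of 0.86 (adjusted p = 0.282), with every KO array above every WT array, and 0.68 (adjusted p = 0.454). The labels do not say which part of Fgfr2 is deleted, so no probe checks the genotype. P-values set the difference between genotypes against the spread between these embryos. The fit used a single variance per item for both genotypes, although the KO SD was above the WT SD for 83.0% of items.

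Tissue markers were read beside the regulators. Cdh1 (E-cadherin) stood at 12.32 ± 0.12 in KO and 12.31 ± 0.08 in WT, and the basal keratin Krt5 at 11.74 ± 0.33 in KO and 11.09 ± 0.21 in WT (SD, n = 3 each). The simple epithelium keratins Krt8 and Krt18 were lower on every KO array than on any WT array, at -1.90 (adjusted p = 0.194) and -2.62 (adjusted p = 0.142), as was Epcam. Krt5 and Spint2 were higher on every KO array than on any WT array. Over all tested items, groups did not overlap for 17.2% with KO lower and 11.3% with KO higher. Of the 12 tested general epithelium genes, 6 had values below 0 and 6 above, 0 passed in either direction, and the median log2 fold change, KO minus WT, was -0.16, against -0.09 over all 13916 tested items. The conjunctival factor Barx2 fell in KO by 2.08 on the log2 scale (limma adjusted p = 0.024), and the corneal keratin Krt12 was undetected on all 6 arrays. Of the 15 tested mesenchyme genes, 6 rose and 1 fell. Prrx1 and Ogn, among those that rose, were undetected on all WT arrays and passed the filter through the KO arrays alone. The mesenchyme list's summed linear intensity was 4560 to 7384 in KO and 2726 to 3188 in WT. The 6 tested erythroid genes included 3 that rose, with a summed intensity of 5228 to 5848 in KO and 727 to 952 in WT. Of the 6 tested lens genes 1 rose, the crystallin Cryab, at 1.97 (limma adjusted p = 0.029), and it was detected on all 6 arrays. The crystallins Cryba1 and Crygb were detected on 4 arrays each and Cryga on 3. The crystallins Cryaa, Crybb1 and Crygc were undetected on all 6 arrays. The part of other cells in the results below was not tested. In tissue samples of this kind, fewer cells of a type and less RNA per cell cannot be told apart.

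Across all items, 2.41% passed at an adjusted p below 0.05 in either direction, 1.59% lower and 0.826% higher in KO. Among the 9 regulators the count was 0. At an unadjusted p below 0.05 the share was 19.4% of all items, and 1 of the 9 regulators, Gata3, met that level. The groups did not overlap, with KO lower, for 2 of the 9 (Gata3 and Grhl1), against 17.2% of all items. They did not overlap, with KO higher, for 2 of the 9 (Grhl3 and Klf5), against 11.3% of all items. Counts this small, set against those shares, give no result about the 9 as a group. The log2 fold changes of the 9 genes ran from -1.65 to 1.11 with a median of 0.20.

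**Figure D1:**
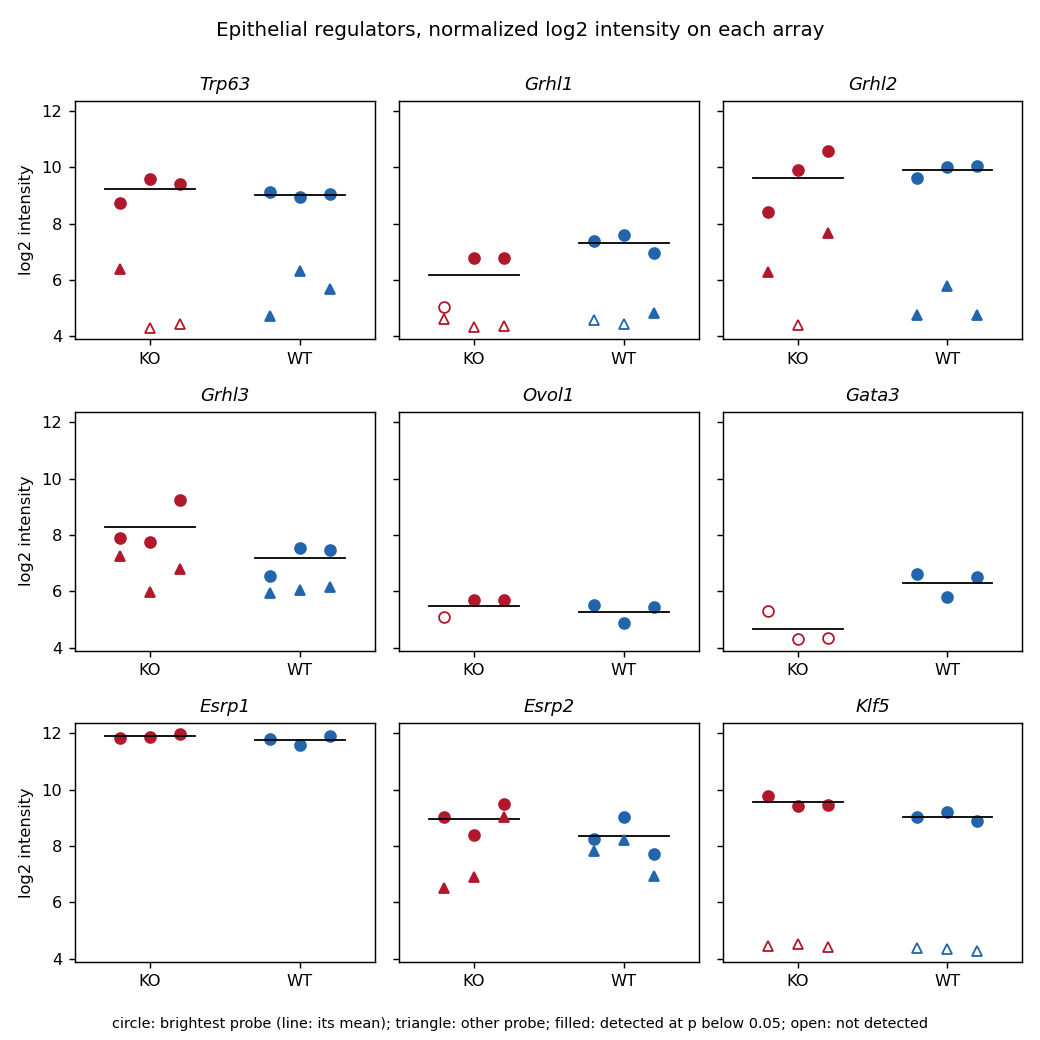
Normalized log2 intensity of every probe of the 9 genes on each array, with KO embryos A, B and C on the left of each panel and WT embryos A, B and C on the right. Circles are the brightest probe with its mean as a line, triangles the other probe, and open symbols were not detected; Gata3 is open on all 3 KO arrays, and Esrp1 lies between 11.59 and 11.99 on all 6.

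Gata3 had the lowest fold change of the list. Its single probe read 5.31, 4.31 and 4.33 on KO arrays A, B and C, against 6.60, 5.79 and 6.50 on WT arrays A, B and C. All 3 KO values lay under the lowest detected signal of their array, and every WT value was detected. The groups did not overlap, the highest KO value being 5.31 and the lowest WT value 5.79. The raw scanner intensities, before any normalization, were 108, 97.5 and 93.9 in KO, against 228, 167 and 232 in WT. The fitted log2 fold change was -1.65 (SE 0.42, limma adjusted p = 0.113, 95% confidence interval -2.67 to -0.62), which did not pass after adjustment over all items. Since the KO level is only a bound, each KO value was also set to the lowest detected signal of its array, which gave 1.88-fold lower in KO. That figure takes no account of the spread between embryos, and the interval above includes smaller differences. Of all tested items, 7.34% were undetected on every KO array. The filter, detection on 3 or more arrays, admits such an item only if all 3 WT arrays detect it. Detection of Gata3 on every WT array was thus a condition of its test. Gata3 is also a T cell gene, and the T cell genes Cd3e and Cd3g were undetected on all 6 arrays. Of the leukocyte and T cell list 4 genes were tested, Tyrobp, Cx3cr1, Mrc1 and Laptm5, none of them specific to T cells. Of these 0 passed, and all 4 had values below 0 (median -1.34). Like Gata3, 3 of them were undetected on all KO arrays: Tyrobp (-1.44), Cx3cr1 (-0.96) and Mrc1 (-1.24). Their detection on all WT arrays follows from the same filter. The list's summed intensity was 321, 894 and 225 on KO arrays A, B and C, where Laptm5 on array B made the high value, and 407 to 685 in WT. Their part in the Gata3 values was not tested. With median scaling the adjusted p of Gata3 was 0.022, and with no scaling between arrays it was 0.012. Both settings moved the median of all items down, to -0.48 and -0.80. Relative to the median of all items, Gata3 stood at -1.57 in both, which differ by a constant, at -1.56 in the quantile normalized values and at -1.03 with cyclic loess (-0.94 before the median was taken off, adjusted p = 0.218). With no background correction the log2 fold change was -0.55 (adjusted p = 0.175).

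None of the 3 Grainyhead-like genes passed, and differences between them were not tested. Grhl1 read 5.04, 6.77 and 6.77 on KO arrays A, B and C, against 7.40, 7.62 and 6.96 on WT arrays A, B and C. Every WT value was above every KO value, and KO array A fell short of detection. The fit for Grhl1 gave -1.13 on the log2 scale (SE 0.55, adjusted p = 0.328, interval -2.48 to 0.21). Its second, dim probe was detected on 1 of the 6 arrays, WT array C, and was not tested. Without KO embryo A the value was -0.56, and with no background correction -0.52. With no scaling between arrays it was -2.13 (adjusted p = 0.044). Relative to the median of all items it was -1.33 with no scaling and -1.04 in the quantile normalized values.

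Grhl2, the Grainyhead factor that sustains E-cadherin in many epithelia, was bright but uneven among KO embryos. Its brightest probe read 8.41, 9.91 and 10.59 on KO arrays A, B and C, against 9.63, 10.03 and 10.06 on WT arrays A, B and C. The KO values lay on either side of the WT values, with an SD of 1.11 in KO and 0.24 in WT. The log2 fold change was -0.27 (SE 0.59, adjusted p = 0.848, interval -1.70 to 1.16), and without KO embryo A it was 0.34. The dimmer Grhl2 probe gave a value of the other sign, 1.02 (adjusted p = 0.580 with every kept probe tested, a fit in which 2.06% of 20853 probes passed). That probe read 6.28, 4.42 and 7.66 in KO, against 4.76, 5.80 and 4.75 in WT, so KO array B was low in it while KO array C was highest in both probes.

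Grhl3, which acts in barrier formation and wound closure, had the highest fold change of the list. Its brightest probe read 7.90, 7.75 and 9.23 on KO arrays A, B and C, against 6.56, 7.54 and 7.46 on WT arrays A, B and C. The lowest KO value exceeded the highest WT value by less than the SD within either group (0.81 in KO, 0.55 in WT). The log2 fold change was 1.11 (SE 0.52, adjusted p = 0.314, interval -0.16 to 2.38). Without KO embryo C it was 0.64, and with no scaling between arrays 0.33. Relative to the median of all items it was 1.13 with no scaling and 1.19 in the quantile normalized values. The raw intensities overlapped, at 260, 260 and 549 in KO and 224, 323 and 335 in WT. The other Grhl3 probe, detected on all 6 arrays, had the same sign, at 0.62 (adjusted p = 0.467), with overlapping groups.

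Promoter windows were available for only 3 of the 9 genes, Gata3, Grhl1 and Grhl3, and are shown for reference. They come from RefSeq, build GRCm38, and run from 250 bases before to 50 bases after an annotated start, each written 5′ to 3′ on the gene's strand. Capitals mark CCACCC or its reverse complement GGGTGG, a KLF-type box, and GGGCGG or CCGCCC, a GC box. The windows are chr2:9878551-9878850 on the minus strand for Gata3, chr12:24572037-24572336 on the plus strand for Grhl1 and chr4:135573583-135573882 on the minus strand for Grhl3.
Gata3: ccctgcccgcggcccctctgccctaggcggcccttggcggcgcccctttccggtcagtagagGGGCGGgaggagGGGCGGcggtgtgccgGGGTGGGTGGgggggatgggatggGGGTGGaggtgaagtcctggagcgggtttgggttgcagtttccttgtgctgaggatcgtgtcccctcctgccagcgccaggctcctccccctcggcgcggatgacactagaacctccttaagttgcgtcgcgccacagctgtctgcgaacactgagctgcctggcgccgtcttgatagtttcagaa
Grhl1: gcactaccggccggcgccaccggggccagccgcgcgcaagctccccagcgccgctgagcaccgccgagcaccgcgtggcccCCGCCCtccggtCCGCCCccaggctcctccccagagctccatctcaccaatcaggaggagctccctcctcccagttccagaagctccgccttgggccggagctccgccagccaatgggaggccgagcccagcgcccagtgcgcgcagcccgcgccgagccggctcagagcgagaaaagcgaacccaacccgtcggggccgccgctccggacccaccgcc
Grhl3: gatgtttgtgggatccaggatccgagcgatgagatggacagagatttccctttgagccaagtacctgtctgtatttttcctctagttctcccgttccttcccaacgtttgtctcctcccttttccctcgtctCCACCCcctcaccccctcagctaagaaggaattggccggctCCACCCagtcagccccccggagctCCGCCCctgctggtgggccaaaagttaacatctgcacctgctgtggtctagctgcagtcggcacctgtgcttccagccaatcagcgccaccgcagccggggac

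The Gata3 window held 3 KLF-type boxes, 2 of which overlap, and 2 GC boxes. The Grhl1 window held 0 KLF-type boxes and 2 GC boxes, and the Grhl3 window 2 KLF-type boxes and 1 GC box. A second annotated Grhl1 start, at chr12:24580469-24580768, had 1 KLF-type box. Such boxes are common: of 32544 windows of this length, 31.6% held a KLF-type box and 35.9% a GC box on either strand. The Grainyhead motif AACCGGTT (0.147% of windows), the OVOL motif CCGTTA (2.76%) and the GATA motif AGATAA (11.2%) were searched on both strands and had no match in these windows. The arrays measured no binding, and the matches are a description of the letters alone.

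Trp63 stayed bright in both genotypes. Its brightest probe read 8.72, 9.59 and 9.40 on KO arrays A, B and C, against 9.11, 8.96 and 9.04 on WT arrays A, B and C. KO array A lay below all WT arrays and the other KO arrays above them, so the groups overlapped. The log2 fold change was 0.20 (SE 0.33, adjusted p = 0.789), and the 95% interval ran from 0.657-fold to 2.01-fold. The second Trp63 probe was dim. It was detected on KO array A alone among the KO arrays and on all 3 WT arrays, with a value of -0.54 (adjusted p = 0.740). It was annotated to another transcript accession than the first, and the files do not say which p63 isoform either probe reads. The sign for Trp63 turned with no scaling between arrays (-0.31) and with the mean of its probes (-0.17). Relative to the median of all items, which was -0.80 with no scaling, Trp63 stood at 0.49 there.

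Of the 18 tested genes regulated by p63, 1 rose, 1 fell and 16 did not pass, and their median log2 fold change was 0.16. Dlx3, a homeobox factor of skin and its appendages, rose by 2.13 (SE 0.31, adjusted p = 0.032), with 10.99, 11.27 and 11.48 in KO, against 8.86, 9.03 and 9.45 in WT. Itga3, an integrin chain that binds laminin at the basement membrane, fell by 3.96 (SE 0.32, adjusted p = 0.0075). Its probe was detected in 1 of 3 KO embryos. The keratin Krt15 had a value of -1.22 (adjusted p = 0.116) and the plakin Dst, which links keratin to hemidesmosomes, 1.79 (adjusted p = 0.191).

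The genes regulated by Grainyhead-like factors showed no common direction. Of 14 tested, 0 rose, 1 fell and 13 did not pass, with a median of -0.11. Elf3, an ETS factor of differentiating epithelium, fell by 1.94 (SE 0.30, adjusted p = 0.035), with 5.88, 5.55 and 5.62 in KO, against 7.86, 7.74 and 7.28 in WT. The adhesion gene Epcam had a value of -1.59 (adjusted p = 0.065) and the desmosomal cadherin Dsg1b 3.53 (adjusted p = 0.099), from a WT level of 4.66 near the detection limit. Dsg1b has near-identical neighbours, so which copy its probe read is uncertain. Cdh1 is in this list too, and its log2 fold change of 0.01 crossed 0 in several settings. With the mean of its kept probes, Elf3 stood at -0.91 (adjusted p = 0.424).

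**Figure D2:**
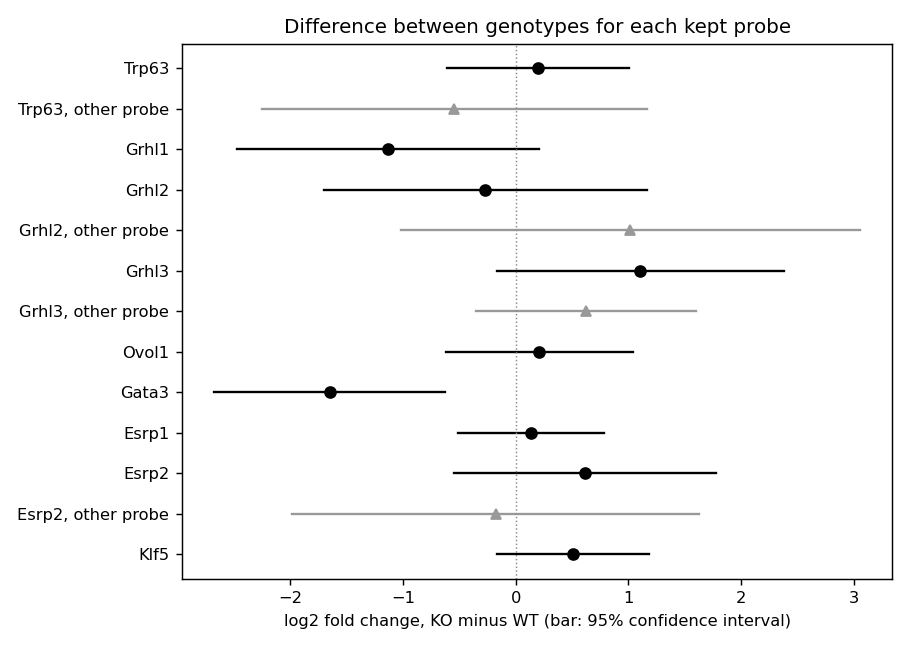
Log2 fold change, KO minus WT, with its 95% confidence interval for each kept probe of the 9 genes, with the probe tested for the gene in black circles and the other probe in grey triangles. Only the Gata3 interval, -2.67 to -0.62, lies off 0, and it did not pass after adjustment over all tested items.

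Esrp1 was the steadiest of the 9 among KO embryos. It read 11.83, 11.89 and 11.99 on KO arrays A, B and C, against 11.80, 11.59 and 11.91 on WT arrays A, B and C. The groups overlapped, the SD was 0.08 in KO and 0.16 in WT, and the log2 fold change was 0.14 (SE 0.26, adjusted p = 0.824). The 95% interval ran from 0.703-fold to 1.72-fold. Its sign turned with median scaling (-0.0065) and with no scaling between arrays (-0.33). Relative to the median of all items it stood at 0.48 in both, and at -0.06 with cyclic loess.

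Esrp2 varied between embryos of both genotypes, with an SD of 0.55 in KO and 0.67 in WT for its brightest probe and of 1.36 in KO and 0.66 in WT for the other. Its brightest probe read 9.02, 8.38 and 9.48 on KO arrays A, B and C, against 8.26, 9.05 and 7.72 on WT arrays A, B and C. The groups overlapped, and the log2 fold change was 0.61 (SE 0.48, adjusted p = 0.539, interval -0.54 to 1.77). With no scaling between arrays it was 0.03. Relative to the median of all items it was 0.83 with no scaling and 0.70 in the quantile normalized values. The other Esrp2 probe, detected on all 6 arrays, had a value of -0.18 (adjusted p = 0.929). Of the 13 tested genes whose transcripts the ESRP proteins splice, 0 passed in either direction and the median was 0.10. Nf2, the merlin tumour suppressor, had a value of 1.98 (adjusted p = 0.155) and Ctnnd1, the p120 catenin, -0.77 (adjusted p = 0.208). These probes read gene levels and not which exons were joined, so splicing was not measured.

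Ovol1 sat near the detection limit. It read 5.08, 5.70 and 5.70 on KO arrays A, B and C, against 5.50, 4.88 and 5.46 on WT arrays A, B and C, and was undetected on KO array A. The normalized groups overlapped, and the fit gave 0.21 on the log2 scale (SE 0.34, adjusted p = 0.788). Before normalization the order was different: the raw intensities were 106, 118 and 110 in KO and 159, 125 and 163 in WT, all KO arrays below all WT arrays. The median raw intensity of all probes was likewise lower on every KO array (101 to 106) than on any WT array (117 to 126). Raw values this near those medians cannot be compared directly between genotypes. The sign followed the scaling, at -0.63 with median scaling and -0.95 with no scaling between arrays. No direction can be given for Ovol1.

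Of the 8 tested mesenchymal transition genes, a group that epithelial regulators hold down, 1 rose, 0 fell and 7 did not pass, and all 8 values were above 0, with a median of 1.59. The median stayed above 0 with median scaling (1.28), cyclic loess (2.10) and no scaling (0.96), although 1 and 2 of the 8 values were below 0 with median scaling and with no scaling. Twist2 rose by 4.33 (SE 0.73, adjusted p = 0.046), and did not pass without KO replicate A or C (adjusted p = 0.068 each). Zeb1, a repressor of Cdh1, was undetected on all WT arrays and had a value of 3.02 (adjusted p = 0.057). The filter admits such an item only if all 3 KO arrays detect it. Detection of Zeb1 on every KO array was thus a condition of its test, and a value above 0 followed from that condition. With the Zeb1 values of WT set to the lowest detected signal of each array it was 6.90-fold higher in KO. That figure takes no account of the spread between embryos. The matrix gene Fn1 had a value of 1.81 (adjusted p = 0.056). Of the mesenchyme markers counted above, Twist1, Twist2 and Vim are also in this list. Among the others Foxc2 fell by 3.25 (adjusted p = 0.035), and Col1a1, a marker of connective tissue, rose by 4.63 (adjusted p = 0.030). The calls for Dlx3, Itga3, Elf3, Twist2, Barx2 and Col1a1 rest on having all 3 WT arrays: leaving out any 1 of them gave adjusted p of 0.053 to 0.204. With array weights Dlx3, Elf3, Twist2 and Col1a1 did not pass either (adjusted p = 0.052 to 0.095).

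Klf5 was higher on each KO array than on any WT array by a small margin. Its bright probe read 9.79, 9.41 and 9.47 on KO arrays A, B and C, against 9.02, 9.22 and 8.90 on WT arrays A, B and C. The difference was 0.51 on the log2 scale (SE 0.28, adjusted p = 0.381), with an interval from 0.890-fold to 2.28-fold. The raw intensities of Klf5 overlapped, at 830, 702 and 631 in KO and 699, 773 and 688 in WT. With no scaling between arrays the log2 fold change of Klf5 was 0.02, where the median of all items was -0.80. Relative to that median Klf5 stood at 0.82, against 0.60 in the quantile normalized values. The other Klf5 probe was undetected on all 6 arrays. Of the 9 tested partners of GATA3 and KLF5, 0 passed, with a median of 0.51. The ubiquitin ligase Wwp1, which acts on KLF5, had a value of -3.27 (adjusted p = 0.063), and the GATA cofactor Zfpm2 2.13 (adjusted p = 0.217). The tested Wwp1 probe was detected on 1 of 3 KO arrays. With the mean of its kept probes, Wwp1 stood at -0.98 (adjusted p = 0.489).

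Among relatives of the 9 genes in their own families, 0 of 11 tested genes passed and the median was 0.21. Klf4, a factor of differentiating epithelium, had a value of 1.83 (adjusted p = 0.153) and Klf3 -0.93 (adjusted p = 0.531). Ovol2, the close relative of Ovol1, was named after its values were seen. It read 10.55, 9.58 and 4.42 on KO arrays A, B and C, against 9.11, 9.55 and 9.23 on WT arrays A, B and C. It was undetected on KO array C by a pair of probes that were both bright on every other array, while its remaining probe was undetected throughout. Its log2 fold change was -1.11 (SE 1.56, adjusted p = 0.749), and 0.77 without KO embryo C. Of 14 tested other factors of surface epithelium, 1 rose (Dlx3), 1 fell (Elf3) and 12 did not pass, with a median of -0.72. Foxq1, a forkhead factor, had a value of -2.90 (adjusted p = 0.081).

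**Figure D3:**
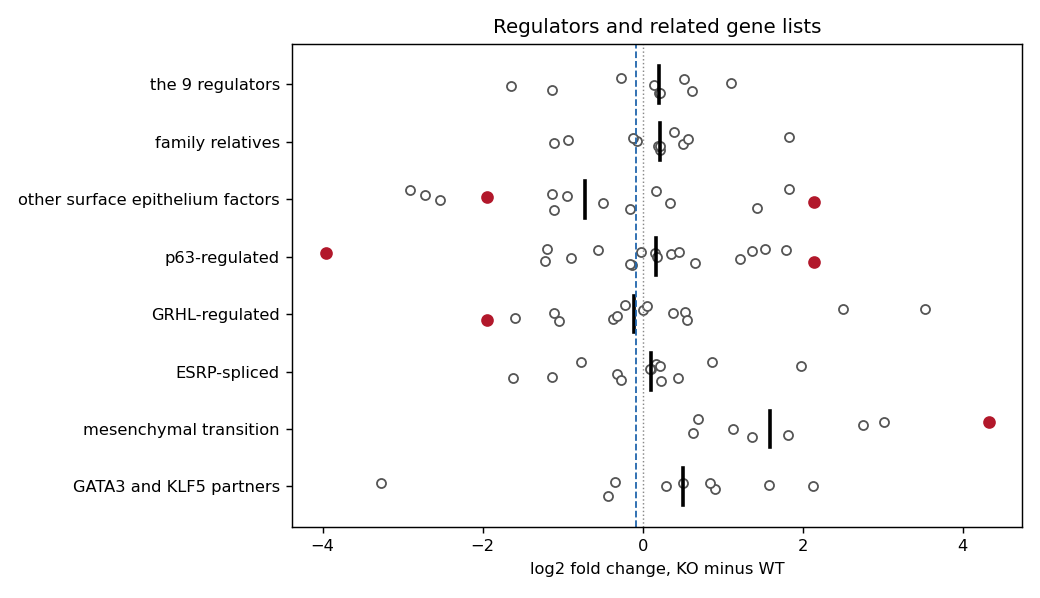
Log2 fold change, KO minus WT, of each tested gene of the 9 regulators and 7 related lists, with the list median as a black bar and the median of all tested items, -0.09, as a dashed line. Filled red points passed at an adjusted p below 0.05; the 9 regulators have none, and all 8 mesenchymal transition genes lie right of 0.

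The standard error over beads was 1.84% to 5.81% of the signal for the 15 probes. Between KO embryos the SD of the 9 genes ran from 0.08 to 1.11 on the log2 scale, and between WT embryos from 0.08 to 0.67. The KO SD was above the WT SD for 7 of the 9 genes, against 83.0% of all items, and the median SD of the 9 was 0.55 in KO and 0.33 in WT, against 0.80 and 0.30 over all items. KO embryo A had the lowest KO value for 5 of the 9 genes, KO embryo B for 4 and KO embryo C for 0, and embryo C had the highest for 5. The mesenchyme list's summed intensity was 7384, 4560 and 6918 on KO arrays A, B and C.

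**Figure D4:**
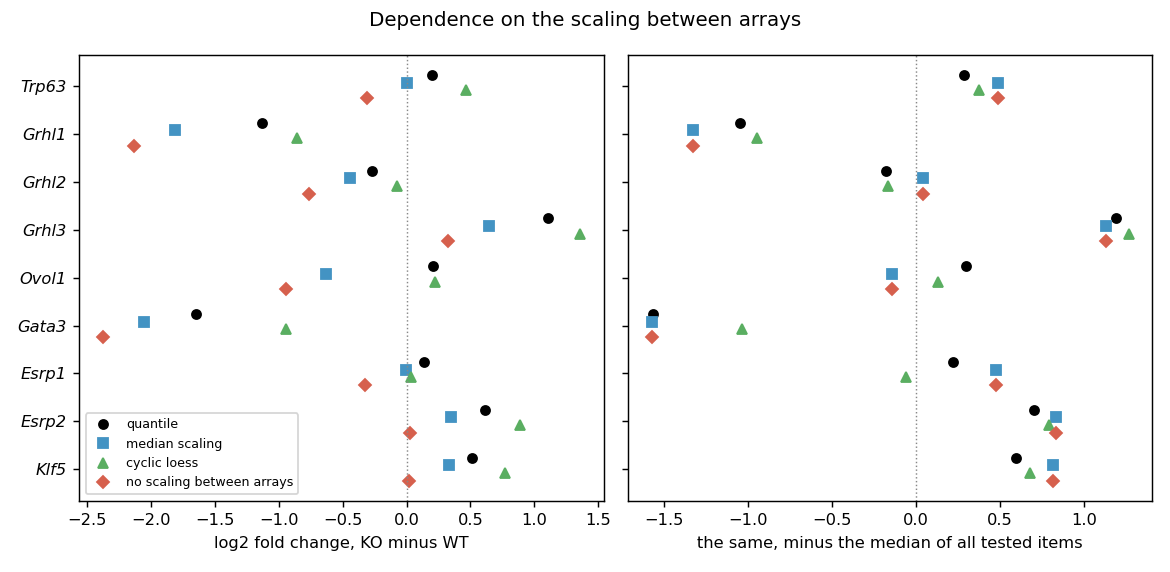
Log2 fold change, KO minus WT, of the 9 genes under 4 treatments of the differences between arrays (left), and the same after the median of all tested items was taken off (right). Gata3 and Grhl1 stay below 0 and Grhl3, Esrp2 and Klf5 above 0 in all 4, whereas Trp63, Ovol1 and Esrp1 cross 0 on the left.

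Likeness of pattern was taken as the Pearson correlation over the 6 arrays, whose points share their array and genotype. The genes nearest to Trp63 were Rilpl1 and Zfp947 (0.99 each), to Grhl2 Chd1l and Sgip1 (0.99 each), and to Klf5 Lrsam1 (0.99) and Lce1c (0.98). With 6 arrays many genes reach such values: 90 items correlated above 0.95 with Trp63, 73 with Grhl2 and 62 with Klf5, but 1 with Esrp1, whose nearest gene was Cmtr1 (0.97). Grhl3 was nearest to Wdr26 (0.99) and Fzd8 (0.97), and Esrp2 to Mfsd2b and Dexi (0.96 each).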

How the data were processed

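Gene expression was measured on 6 arrays, 3 KO and 3 WT, 1 per embryo. Per the file headers, the deposited scanner values are average bead intensity per probe, neither background-subtracted nor normalized, and a detection p-value. Its standard error of the bead intensity, here a score, and its number of beads are given as well, per the file headers. The submitters' processing notes name GenomeStudio, without version or method. The authors' processed intensity values in a second deposited table were an alternative only.

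Background correction, quantile normalization and the log2 step used neqc of limma 3.58.1 (R 4.3.3; offset 16). A probe was kept if 3 or more of the 6 arrays detected it at p below 0.05 (20853 of 45281), and the brightest kept probe stood for a gene, giving 13916 tested items, of which 10418 were genes with a symbol. Limma's lmFit and eBayes compared KO with WT, fitting genotype alone, with p-values adjusted over all items by Benjamini-Hochberg; log2 fold changes are KO minus WT, and SEs, intervals and adjusted p-values come from this fit unless another is named. The number of arrays limits the precision.

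The text names all 9 genes and, of each related list, the called genes and the pair of others with the smallest p. Markers and Ovol2 were chosen after their values were seen. The genes and lists were chosen with earlier results of these data known. No gene set test was run. Sequences are from RefSeq; figures used matplotlib 3.10.9.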

Additional observations from a re-analysis of the deposited data

How the results depend on the processing

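The count of 0 among the 9 regulators was 1 with median scaling (Gata3), 2 with no scaling (Gata3 and Grhl1) and 1 at an unadjusted p below 0.05 (Gata3), and 0 in the other 18 of 21 alternatives, each left-out replicate included (0 to 0). The count over all items, 336, was 1050 with median scaling, 2052 with no scaling, 660 with no filter, 189 with detection p below 0.01 on all arrays, which tests fewer items, 185 with array weights, 764 at an adjusted p below 0.10 and 2702 at an unadjusted p below 0.05. It ran from 12 to 563 without 1 replicate: it was 540, 563 and 560 when KO embryo A, B or C was left out, and 12, 19 and 28 when WT embryo A, B or C was. With a replicate block it was 0 in limma, and 2079 items, with 1 of the 9 regulators, had an unadjusted p below 0.05. The labels do not say whether the shared letters pair embryos. Deviations from the genotype means correlated at -0.029 to -0.0043 between embryos of the same letter. With KO arrays this unlike each other, such values cannot decide it. Of the calls, 221 of 336 were lower in KO, as were 947 of 1050 under median scaling, 1965 of 2052 without scaling and 132 of 255 under cyclic loess. The cause was not tested. Signs turned for Ovol1 (-0.63 with median scaling, -0.95 with no scaling), Esrp1 (-0.0065, -0.33), Trp63 (-0.31 with no scaling, -0.17 with probe means), Grhl2 (0.38 with probe means) and Fgfr2 (-0.0065 with cyclic loess, -0.32 with no scaling). Cdh1 turned to -0.16 with median scaling, -0.19 with loess, -0.48 with no scaling, -0.26 with probe means and -0.011 with array weights. Without 1 replicate, Cdh1 ran from -0.061 to 0.052, Ovol2 from -2.30 to 0.77 and Grhl2 from -0.74 to 0.34. Grhl3, Esrp2, Klf5, Gata3 and Grhl1 kept their sign in every alternative that gave a value. Median scaling and no scaling moved the median of all items down, to -0.48 and -0.80. Relative to that median, Trp63 and Esrp1 stayed above 0 in both settings (0.49 and 0.48), and Ovol1 stood at -0.14. Signals near the detection limit, as for Gata3 and Ovol1, limit how small a KO level can be read.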

Other observations

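The pattern seen for Ovol2, bright on 2 arrays of a genotype and undetected on the other, was counted over all tested items. Items at or above 9 on the log2 scale on 2 KO arrays and undetected on the other numbered 19 for KO array A, 15 for KO array B and 12 for KO array C. The same count was 0 for each of WT arrays A, B and C. None of the 9 regulators showed this pattern. The threshold of 9 was chosen after the values of Ovol2 were seen, and the cause was not tested.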
